A study of Mus musculus with 58 samples.

Results

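Peaks of the ribosome-assembly factors CIRH1A, UTP3 and UTP6 coincided at 6821 regions of the mouse genome, and 958 of these regions held no PSPC1 peak. The regions were selected on the peak lists themselves. Peaks of 9 chromatin immunoprecipitation sequencing (ChIP-seq) lists that shared at least 1 bp were merged into 67384 regions. A region was kept if it held a peak of CIRH1A, of UTP3 and of UTP6 and no peak in any of the 3 PSPC1 lists. The presence of the 3 factors and the absence of PSPC1 are therefore the definition of these regions and not a result. The remaining 5863 regions of the 3 factors, which held at least 1 PSPC1 peak, served for comparison.

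The libraries came from mouse embryonic stem cells of strain 129/Ola without treatment, and each protein was pulled down with 5 µg of an antibody against the FLAG epitope. PSPC1 was profiled in 2 libraries of a knock-in line derived from CJ9 cells, in which the protein carries an AID-FB tag at its own gene, and in 1 library of FB-tagged, overexpressed protein. CIRH1A, UTP3, UTP6, hnRNPU, SAFB and SAFB2 were overexpressed with an FB tag, with 1 library each. All overexpression lines derive from J1 cells that carry the biotin ligase BirA. Fixation was with 3% formaldehyde for knock-in PSPC1 and for the 3 factors, and with 1% formaldehyde for overexpressed PSPC1. The hnRNPU, SAFB and SAFB2 cells received 2 mM of the protein crosslinker DSP and 1% formaldehyde, with DNase I digestion and a streptavidin purification added. The 3 factors thus share fixation but not the cell line with knock-in PSPC1, and share the cell line but not fixation with overexpressed PSPC1. Peaks from untagged cells were not used here. The other 49 samples of the series were not analysed here.

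CIRH1A (cirhin, also UTP4), UTP3 and UTP6 belong to the small-subunit processome, the large nucleolar particle that assembles on the nascent ribosomal RNA precursor and takes part in its cleavage. CIRH1A is part of the UTP-A subcomplex and UTP6 of the UTP-B subcomplex. PSPC1 is an RNA-binding protein of the DBHS family and a component of paraspeckles, the nuclear bodies built on a long noncoding RNA. hnRNPU, also called scaffold attachment factor A, binds nuclear RNA and AT-rich DNA. SAFB and SAFB2 are closely related scaffold attachment factor B proteins that bind both RNA and DNA.

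The share of regions without a PSPC1 peak was lowest where all 3 factors had peaks. Peaks of the factors and of PSPC1 are what the rule used, so these shares are a description. No such share over all merged regions is given beside them. Of the 23800 regions with UTP6 and neither CIRH1A nor UTP3, 62.0% held no PSPC1 peak. For UTP3 alone of the 3 factors it was 67.1% of 699 regions, and for CIRH1A alone 73.4% of 346. The share was 33.2% of the 6729 regions with UTP3 and UTP6 alone, 30.8% of the 2261 regions with CIRH1A and UTP6 alone and 57.7% of the 142 regions with CIRH1A and UTP3 alone. It was 14.04% of the 6821 regions with all 3 factors (95% Wilson interval 13.2 to 14.9%, which covers counting error only). A wider region overlaps more peaks of any list, and these shares are not adjusted for width or score rank. Regions with PSPC1 split into 1974 with overexpressed PSPC1 only, 582 with knock-in PSPC1 only and 3307 with both forms. The share without PSPC1 rested on the PSPC1 lists used, with 43.0% against the knock-in lists alone and 22.7% against the overexpressed list alone. It also rested on list length. When every list was cut to its 6670 highest-scoring peaks, the length of the shortest list, 41.3% of the regions of the 3 factors held no PSPC1 peak.

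Among the 958 regions without PSPC1, 450 held a peak of hnRNPU, SAFB or SAFB2 (47.0%, interval 43.8 to 50.1%). The corresponding share was 31.6% of all merged regions and 59.3% of all regions of the 3 factors. The other 508 regions (53.0%) held none of the 3 proteins, so their only peaks were those of CIRH1A, UTP3 and UTP6. Presence of hnRNPU, SAFB and SAFB2 was not used to choose the regions. Because each of these proteins has 1 library and regions are not replicates, the shares carry counting intervals and no p-value.

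hnRNPU was the protein whose share differed most with PSPC1. It had a peak at 267 of the 958 regions without PSPC1 (27.9%, interval 25.1 to 30.8%), beside 15.1% of all merged regions and 45.9% of all regions of the 3 factors. At the 5863 regions with PSPC1 the share was 48.9% (interval 47.6 to 50.2%). The difference was 21.0 percentage points, with an interval of 17.8 to 24.1 points by Newcombe's method. It lay between 12.6 and 22.6 points under the 14 alternative ways of processing the lists. The share was 38.5% at regions with knock-in PSPC1 only, 42.3% at regions with overexpressed PSPC1 only and 54.7% at regions with both forms.

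For SAFB and SAFB2 the intervals of the same difference included 0. SAFB had a peak at 235 of the 958 regions (24.5%, interval 21.9 to 27.4%), beside 15.7% of all merged regions, 24.1% of all regions of the 3 factors and 24.1% of those with PSPC1. SAFB2 had a peak at 176 regions (18.4%, interval 16.05 to 20.9%), beside 9.79% of all merged regions, 17.8% of all regions of the 3 factors and 17.7% of those with PSPC1. The difference between regions with and without PSPC1 was -0.45 points for SAFB (interval -3.47 to 2.40) and -0.68 points for SAFB2 (interval -3.43 to 1.84). The interval lay wholly below 0, with a higher share where PSPC1 was missing, in 3 of the 14 alternatives for SAFB and in 2 for SAFB2, and wholly above 0 in none. Against the knock-in lists alone the differences were -5.47 points for SAFB (interval -7.55 to -3.41) and -4.85 points for SAFB2 (interval -6.71 to -3.00). Regions with overexpressed PSPC1 only had the highest shares of both proteins, 28.6% for SAFB and 21.6% for SAFB2.

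**Figure D1:**
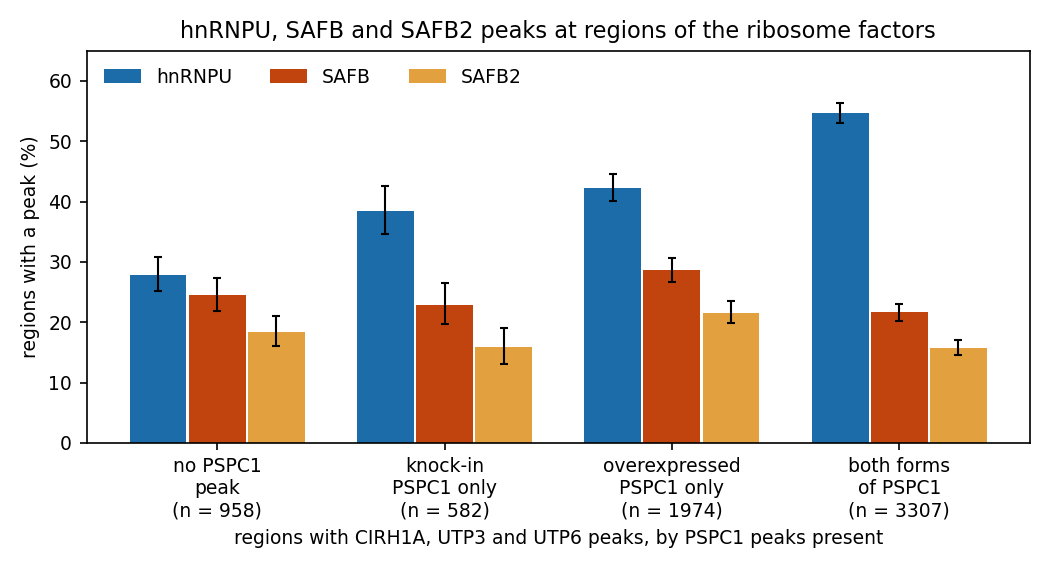
Share of the regions with CIRH1A, UTP3 and UTP6 peaks that also held an hnRNPU, SAFB or SAFB2 peak, in percent, by the PSPC1 peaks present. Bars are shares of the regions counted under each label and error bars are 95% Wilson intervals. The hnRNPU bars run from 27.9% without PSPC1 to 54.7% with both forms of PSPC1, while the SAFB bars lie between 21.6% and 28.6%.

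All 7 combinations of hnRNPU, SAFB and SAFB2 occurred at the regions without PSPC1. hnRNPU alone was found at 150 regions (15.7%, against 30.2% of the regions with PSPC1). SAFB alone was found at 79 regions (8.25%, against 5.99%) and SAFB2 alone at 41 (4.28%, against 3.17%). SAFB and SAFB2 without hnRNPU shared 63 regions (6.58%, against 3.22%). The shares of the combinations that include hnRNPU were below those with PSPC1, with hnRNPU and SAFB at 45 regions (4.70%, against 7.44%), hnRNPU and SAFB2 at 24 (2.51%, against 3.85%) and all 3 proteins at 48 (5.01%, against 7.44%). Of all merged regions, 1.18% held all 3. SAFB and SAFB2 occurred together. SAFB was present at 63.1% of the 176 regions with SAFB2 and at 15.9% of the 782 regions without it. These shares were close to those at regions with PSPC1, which were 60.3% and 16.3%. hnRNPU was present at 39.6% of the 235 regions with SAFB and at 24.1% of the 723 regions without it. Regions with PSPC1 showed the same order, with hnRNPU at 61.8% of those with SAFB and at 44.8% of those without.

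Merging by overlap joins an hnRNPU, SAFB or SAFB2 peak to a region only through a factor peak or through another of these peaks, so a high overlap is fixed by the way the regions were built. The hnRNPU peak overlapped the UTP6 peak at 266 of 267 regions, the SAFB peak at 233 of 235 and the SAFB2 peak at 158 of 176. The median offset between midpoints was 123 bp for hnRNPU, 223 bp for SAFB2 and 359 bp for SAFB. SAFB peaks at these regions were broad, with a median width of 2019 bp, against 735 bp for hnRNPU peaks.

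The overlap of the 3 factors was likewise part of the selection, and its values are a description. At 946 of the 958 regions (98.7%, against 99.2% with PSPC1) at least 1 base was common to a CIRH1A, a UTP3 and a UTP6 peak, and the common stretch had a median length of 693.5 bp. Midpoints of the UTP3 and UTP6 peaks lay within 250 bp of each other at 86.3% of the regions, those of CIRH1A and UTP3 at 83.8% and those of CIRH1A and UTP6 at 82.3%. With PSPC1 the 3 shares were 80.5%, 78.1% and 76.6%. More than 1 peak of a factor was found at 29 regions. The regions had a median width of 1441 bp (quartiles 1082 and 1989 bp, range 368 to 7423 bp), against 2050 bp for regions with PSPC1. The merged width includes the PSPC1, hnRNPU, SAFB and SAFB2 peaks where these are present. Over the peaks of the 3 factors alone, the median span was 1295 bp without PSPC1 and 1625 bp with it.

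Regions without PSPC1 had lower deposited peak scores. A score ranks a peak only within its own list, so it is given here also as the percentile of that list. The median UTP6 score was 186 (percentile 76.3) without PSPC1 and 250 (percentile 88.1) with it. For UTP3 the medians were 90.01 (percentile 55.05) and 107 (percentile 68.2), and for CIRH1A 75.8 (percentile 47.8) and 88.3 (percentile 61.8). Scores are values of the lists that chose the regions, so these differences are a description. The highest scores without PSPC1 were 360 for CIRH1A, 398 for UTP3 and 634 for UTP6, whereas regions with PSPC1 reached over 3100 in each list. CIRH1A had the lowest percentile of the 3 factors at 511 regions, UTP3 at 320 and UTP6 at 127. These lists held 9689, 14562 and 40217 peaks. Regions of the 3 factors take up a larger part of a shorter list, so these counts do not rank the factors by strength. Across the 958 regions the scores of UTP3 and UTP6 had a Spearman correlation of 0.43, those of CIRH1A and UTP3 0.30 and those of CIRH1A and UTP6 0.23. At regions with PSPC1 the 3 correlations were 0.57, 0.41 and 0.44. Peaks of 1 region share local sequence and background, and no p-value is attached.

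**Figure D2:**
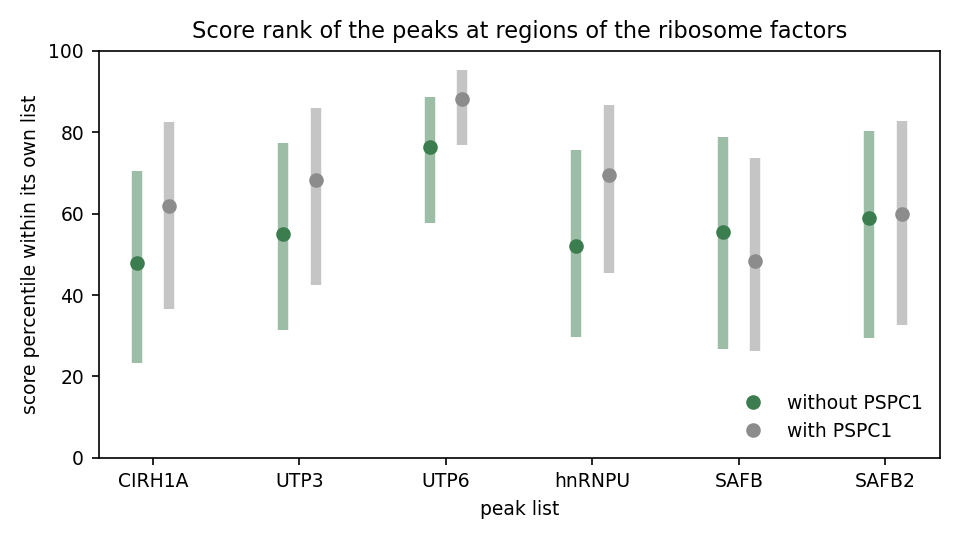
Percentile of the deposited peak score within its own list, for 6 peak lists, at regions of the 3 factors without PSPC1 (green) and with PSPC1 (grey). Dots are medians and bars span the quartiles. The green dot is below the grey dot in the CIRH1A, UTP3, UTP6 and hnRNPU lists and above it in the SAFB list.

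The score of the hnRNPU peaks differed in the same direction, and that of the SAFB peaks did not. The median hnRNPU score was 70.7 (percentile 52.1) at the 267 regions without PSPC1 and 86.3 (percentile 69.4) at the 2867 regions with it. The median SAFB score was 79.6 (percentile 55.4) without PSPC1 and 73.5 (percentile 48.3) with it. SAFB2 medians were 71.9 and 72.6.

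Both the lack of PSPC1 and the share of hnRNPU moved with the UTP6 rank. PSPC1 was missing at 39.0% of the 480 regions in the lower 50% of the UTP6 list and at 7.44% of the 2782 regions in its highest 10%. Within ranges of UTP6 rank, the hnRNPU share stayed lower where PSPC1 was missing. In the lower 50% of the list it was 13.9% without PSPC1 (interval 9.67 to 19.6%) and 28.3% with it (interval 23.5 to 33.7%). In the highest 10% it was 38.6% without PSPC1 (interval 32.3 to 45.4%) and 59.1% with it (interval 57.2 to 61.0%). SAFB showed the opposite order in the lower 50%, with 23.5% without PSPC1 (interval 18.0 to 30.1%) and 13.3% with it (interval 9.89 to 17.7%), and nearly equal shares of 32.9% and 31.0% in the highest 10%. By the span of the factor peaks, the hnRNPU share was 19.05% against 33.6% below 1000 bp and 31.1% against 54.99% at 2000 bp or more. The order of SAFB and SAFB2 reversed between these spans. Below 1000 bp both shares were lower without PSPC1, at 13.9% against 22.7% for SAFB and 12.1% against 20.7% for SAFB2. At 2000 bp or more both were higher without PSPC1, at 35.3% against 24.8% and 30.3% against 19.4%. The intervals of SAFB and SAFB2 were apart in these comparisons and overlapped between 1000 and 2000 bp.

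**Figure D3:**
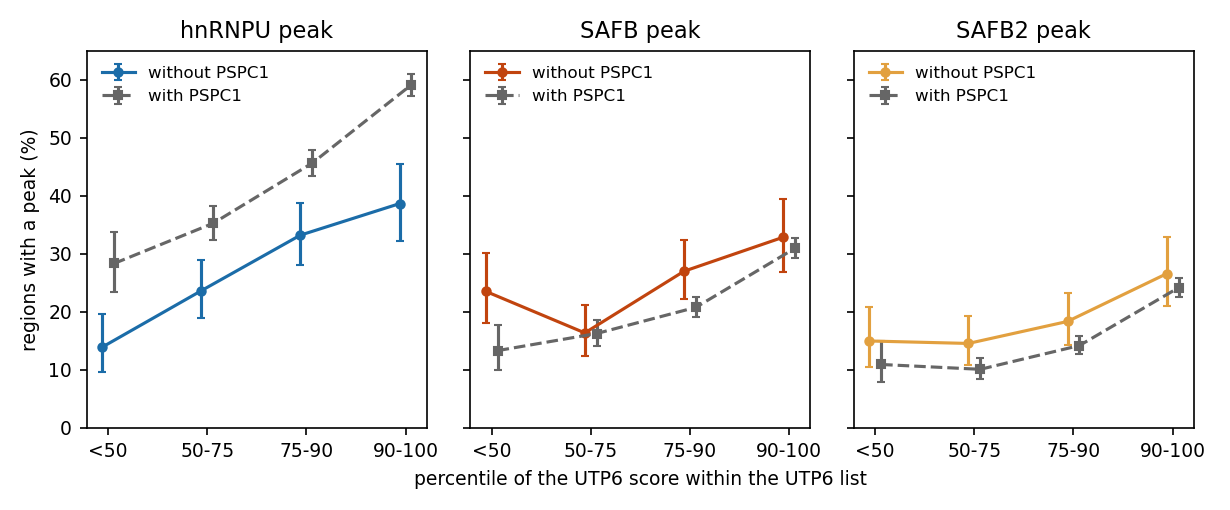
Share of regions with an hnRNPU, SAFB or SAFB2 peak, in percent, in 4 ranges of the UTP6 score percentile, for regions of the 3 factors without PSPC1 (coloured, solid) and with PSPC1 (grey, dashed). Error bars are 95% Wilson intervals. In the hnRNPU panel the solid line runs from 13.9% to 38.6%, below the dashed line from 28.3% to 59.1% in every range. The SAFB and SAFB2 solid lines lie at or above the dashed lines in every range, mostly with overlapping intervals.

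The distance from the 958 regions to the nearest PSPC1 peak of any list had a median of 21172.5 bp (quartiles 8034.5 and 63611.5 bp). A PSPC1 peak lay within 1 kb of 41 regions, within 10 kb of 297 regions (31.0%) and within 100 kb of 806 regions (84.1%). The share of regions with an hnRNPU peak was higher at larger distances. It was 7.32% of the 41 regions up to 1 kb from PSPC1 (3 regions, interval 2.52 to 19.4%), 15.6% of the 256 regions at 1 to 10 kb, 30.8% of the 509 regions at 10 to 100 kb and 44.1% of the 152 regions beyond 100 kb (interval 36.4 to 52.0%). SAFB was present at 17.1% of the nearest and 37.5% of the farthest regions, and SAFB2 at 14.6% and 24.3%, with wide intervals for the 41 nearest regions (8.53 to 31.3% for SAFB and 6.88 to 28.4% for SAFB2).

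The UTP6 rank moved with this distance. Its median percentile was 59.5 up to 1 kb, 64.9 at 1 to 10 kb, 78.3 at 10 to 100 kb and 85.9 beyond 100 kb. Among regions at or above the 75th UTP6 percentile, hnRNPU was present at 15.8% of the 95 within 10 kb of PSPC1 (interval 9.81 to 24.4%) and at 40.1% of the 401 farther away (interval 35.5 to 45.0%). Below that percentile the shares were 13.9% of 202 (interval 9.77 to 19.3%) and 24.2% of 260 (interval 19.4 to 29.8%). SAFB was present at 22.1% and 31.2% at or above that percentile and at 18.3% and 20.0% below it. SAFB2 shares lay closer together within these ranges, with 23.2% within 10 kb and 21.4% farther away at or above the percentile, and 13.9% and 15.4% below it.

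**Figure D4:**
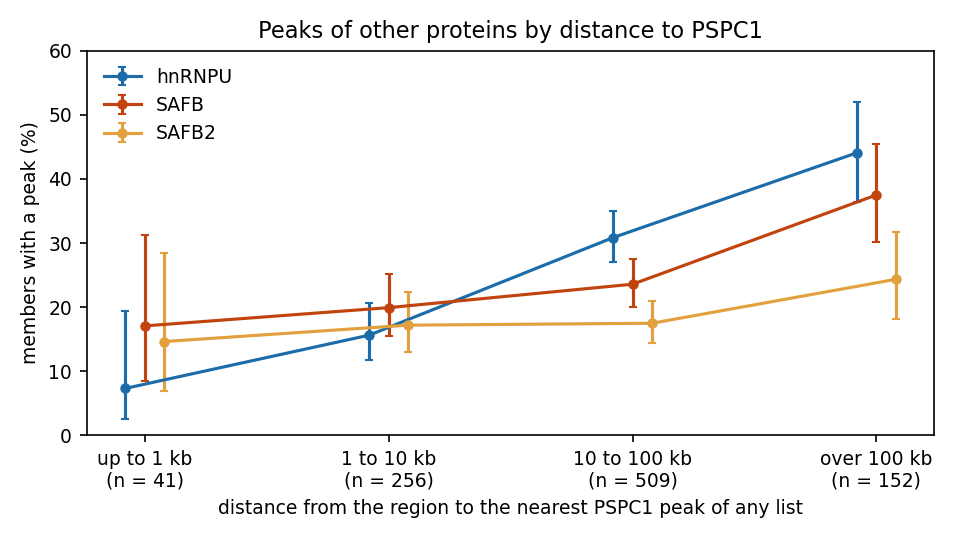
Share of the 958 regions without PSPC1 that held an hnRNPU, SAFB or SAFB2 peak, in percent, by the distance to the nearest PSPC1 peak. Error bars are 95% Wilson intervals and n is the number of regions. The hnRNPU share runs from 7.32% of 41 regions up to 1 kb to 44.1% of 152 regions beyond 100 kb.

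At the edge of the rule, 195 of the 958 regions (20.4%) had a lowest factor score under 55, close to the minimum of 50 in those lists. On the other side, 500 of the 5863 regions with PSPC1 (8.53%) had a highest PSPC1 score under 55. For 267 of them the highest PSPC1 score was under 50, which only the knock-in lists contain, since their minimum is 30. The member nearest to a PSPC1 peak, at chrUn_random:2958373-2959327 (mm9 coordinates, as all below), lay 10 bp from it, and the next, at chr16:91917770-91918752, lay 24 bp from it. Just outside the rule, the region at chr14:4200014-4202520 shared 11 bp with a knock-in PSPC1 peak of score 31.3.

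The region with the best mean percentile over the 3 factors was chr16:50994097-50995905. Its scores were 197 for CIRH1A, 398 for UTP3 and 452 for UTP6. It also held hnRNPU (score 80.9), SAFB (112) and SAFB2 (90.6), and the nearest PSPC1 peak was 133598 bp away. The second, chr2:84344864-84347189, had scores of 187, 229 and 434 with hnRNPU and SAFB2, 44717 bp from PSPC1. The region at chrX:4267240-4268249 came next, with scores of 221, 194 and 492. It held none of hnRNPU, SAFB and SAFB2 and lay 3307 bp from a PSPC1 peak. After it came chr9:13338487-13339629 and chr9:67997298-67999974, both with hnRNPU and SAFB and both over 100 kb from PSPC1.

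Among the 48 regions with all 6 proteins other than PSPC1, the ranks of the proteins within their own lists differed. At chr13:62179054-62183469 SAFB stood at percentile 99.6 of its list and SAFB2 at 98.9, while hnRNPU stood at 0.43. At chr3:56863981-56867085 hnRNPU stood at percentile 99.02, SAFB at 77.4 and SAFB2 at 69.03. The regions at chr5:23215051-23220339 and chrX:98057036-98061498 were the other two of the leading 5, with UTP6 scores of 323 and 421. The widest members were chr13:66688437-66695859 (7423 bp), chr13:66592894-66600309 (7416 bp) and chr11:48764121-48771487 (7367 bp), and each held a SAFB peak and no hnRNPU peak. Peaks of the 3 factors alone spanned at most 7139 bp at any member, so broad peaks of other lists are part of these widths. The SAFB peaks there are therefore not independent of the choice by width. No gene annotation or sequence of the mm9 assembly was used here, so no region is assigned to a gene.

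The chromosomal distribution differed between regions with and without PSPC1. Chromosome 1 held 59 of the 958 regions (6.16%, interval 4.80 to 7.86%), against 12.6% of the regions with PSPC1 (interval 11.7 to 13.4%) and 12.8% of all merged regions. Of the regions with a UTP6 peak and no other, 6.71% lay on chromosome 1. The knock-in lists hold an excess of chromosome 1 peaks, and the rule removes regions with knock-in peaks. The chromosome 1 shares are therefore not independent of the selection and are a description. Against the overexpressed PSPC1 list alone, chromosome 1 held 10.3% of the regions without a PSPC1 peak, and against the knock-in lists alone it held 4.91%. Chromosome 14 held 76 regions (7.93%, interval 6.39 to 9.82%), against 4.38% with PSPC1 and 4.23% of all merged regions. The X chromosome held 34 regions (3.55%, interval 2.55 to 4.92%), against 1.62% with PSPC1 (interval 1.33 to 1.98%). The members' share lies near the 2.78% of all merged regions, which is inside its interval. On the X chromosome 26.4% of the 129 regions of the 3 factors lacked PSPC1. Of the 34 members there, 38.2% held hnRNPU, 35.3% SAFB and 38.2% SAFB2, against 27.9%, 24.5% and 18.4% of all 958 members. The hnRNPU share was higher on chromosomes 16 (51.7% of 29 members), 2 (41.8% of 67) and 18 (40% of 20). These chromosome counts are small. The assembled chromosome Y held no member and only 1 region of the 3 factors. Unplaced (random) contigs, including those assigned to chromosome Y, held 19 members, which were 23.2% of their 82 regions of the 3 factors.

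**Figure D5:**
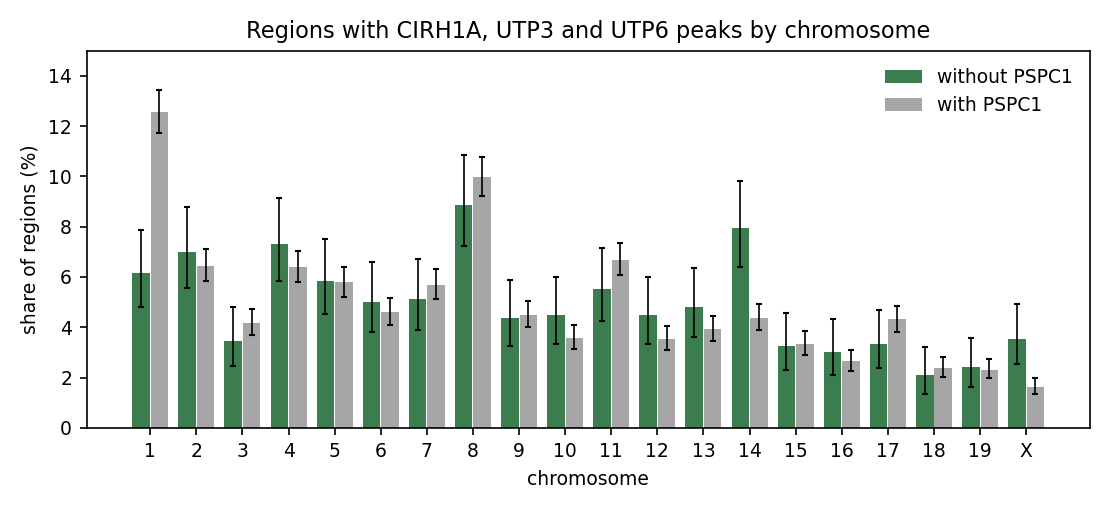
Share of the regions of the 3 factors on each chromosome, in percent, for the 958 regions without PSPC1 (green) and the 5863 with PSPC1 (grey). Error bars are 95% Wilson intervals. Chromosome 1 stands at 6.16% against 12.6%, chromosome 14 at 7.93% against 4.38% and the X chromosome at 3.55% against 1.62%. The knock-in lists hold an excess of chromosome 1 peaks, and the rule removes regions with knock-in peaks.

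Most regions stood alone. The 939 regions on placed chromosomes fell into 675 bins of 1 Mb, of which 520 held exactly 1 region, and the median distance to the nearest other member was 644172 bp. Another member lay within 100 kb of 171 regions (18.2%). In 16 bins there were at least 4 members, a limit set after the counts were seen, and these bins held 116 regions (12.1% of the 958). The fullest were chr13:66000001-67000000, with 16 of its 33 regions of the 3 factors lacking PSPC1, chr4:146000001-147000000 with 12 of 25 and chr14:3000001-4000000 with 11 of 20. The stretch chr14:3000001-8000000 held 41 of that chromosome's 76 members, and it was also chosen after the counts were seen. Outside it chromosome 14 held 3.82% of the members and 3.56% of the regions with PSPC1.

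Regions in these clusters differed from the scattered ones. Their median UTP6 percentile was 45.8, against 79.2 for the 823 regions in other bins. hnRNPU was present at 17.2% of the clustered regions (interval 11.4 to 25.1%) and 29.3% of the others (interval 26.3 to 32.5%). SAFB2 showed the reverse, with 31.0% (interval 23.3 to 39.9%) and 16.6% (interval 14.3 to 19.3%), and SAFB was at 24.1% (interval 17.3 to 32.7%) and 24.7%. Regions with PSPC1 in the same bins held hnRNPU at 43.9%, SAFB at 38.6% (interval 32.0 to 45.7%) and SAFB2 at 38.1%, against 49.1%, 23.4% and 16.6% of those with PSPC1 in other bins. The SAFB2 share was thus higher in these bins both with and without PSPC1. Regions in these bins were also wider, with medians of 1703.5 against 1412 bp without PSPC1 and 2724 against 2040 bp with it. The shares are not adjusted for width. At chr5:14000001-16000000, 13 of 26 regions of the 3 factors lacked PSPC1, and none of the 13 held hnRNPU or SAFB, while 3 held SAFB2. Other stretches held both hnRNPU and SAFB. These were at 7 and 10 of the 41 members at chr14:3000001-8000000 and at 7 and 9 of the 22 at chr4:145000001-147000000. At chr13:65000001-67000000 they were at 4 and 7 of the 20 members. Without the 16 bins the difference in the hnRNPU share between regions with and without PSPC1 was 19.7 points.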

How the data were processed

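The deposited files are 9 peak lists (156215 peaks in all), 1 per library, in mm9 coordinates per the submitters' processing notes, which also name CASAVA, Bowtie2 and TopHat without roles. Per the file contents, peak names carry the name MACS. Its version, threshold and control are not given in the sources used here. No unit is stated for the deposited score, which served only to rank peaks within a list. The lowest score was 30 in the knock-in lists and 50 in the others. Read depth is unknown from a peak list, and list lengths ran from 6670 (SAFB2) to 40217 (UTP6).

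Peaks sharing at least 1 bp were merged in Python 3.11.15 (pandas 2.3.3, numpy 2.4.6, scipy 1.17.1), and the merge was tested on simulated data. Positions are counted from 1. A percentile is the share of a list's peaks with a score at or below the peak's, and the highest is taken where a region holds several. Shares have Wilson 95% intervals, and differences of shares Newcombe intervals. Both cover counting error only. The members were chosen with earlier results of these data known. Regions are named by rank: the 5 best by mean percentile, the 5 best with all of hnRNPU, SAFB and SAFB2, the 3 widest, those nearest to and barely overlapping PSPC1, and the 3 fullest 1 Mb bins. The stretches on chromosomes 4, 5, 13 and 14 were chosen after their values were seen. Gene, promoter and sequence descriptions were not run, because no mm9 annotation or genome was used here.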

Additional observations from a re-analysis of the deposited data

How the results depend on the processing

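The count and share of regions without PSPC1, the share with hnRNPU, SAFB or SAFB2, the 3 differences of shares, the median width, the UTP6 percentile and the chromosome 1 share (not without that chromosome) were recomputed under 14 alternatives, of which 3 (no PSPC1 peak within 1 kb, removal of the 16 fullest bins, removal of chromosome 1) were chosen after seeing the data. The number of regions without PSPC1 moved beyond 1.5 times only with other PSPC1 lists, to 2932 against the knock-in lists alone and 1546 against the overexpressed list alone. Their share of the regions of the 3 factors was 43.0% and 22.7% in those cases, 41.3% with lists of equal length, 24.7% with the highest-scoring 50% of each list, 17.9% with a minimum score of 50 in every list, 15.2% with 500 bp windows, 14.9% without chromosome 1 and 12.9% without the fullest bins. Leaving out a knock-in library gave 16.03 to 17.7%. The share with hnRNPU, SAFB or SAFB2 was 60.4% with lists of equal length, 54.7% against the knock-in lists alone and 40.6% with 500 bp windows. The hnRNPU difference kept its direction in all 14 alternatives and was smallest with lists of equal length (12.6 points), against the knock-in lists alone (14.7) and with the highest-scoring 50% (16.3). The SAFB difference was above 0 in 4 of the 14 and reached -5.47 points against the knock-in lists alone. The SAFB2 difference was above 0 in 6 and reached -4.85 points there. The median width was 1689 bp with lists of equal length, 1594 bp with the highest-scoring 50%, 1551 and 1503.5 bp against the knock-in and overexpressed lists alone, 1115 bp for UTP6 peaks at reciprocal overlap of 50% and 688 bp for merged 500 bp windows. The median UTP6 percentile was 94.2, 90.3, 83.6 and 79.0 in the first 4 of these settings, 73.4 at reciprocal overlap and 78.6 without the fullest bins. The chromosome 1 share was 10.3% against the overexpressed list alone. Apart from settings that change the peaks or lists entering by construction, the cause was not tested. The promoter windows planned as an alternative were not run. The shares by distance, by UTP6 rank, by combination and in the fullest bins, and the other chromosome shares, were computed with the main settings only. No paired analysis was possible because each overexpressed protein has 1 library and the peak lists were compared without a test. Without read depth, a missing PSPC1 peak cannot be told apart from a weak one.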
